A study of Mus musculus with 6 samples.

Results

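The MaLR and MERVL elements are the class III long terminal repeat (LTR) retrotransposons of the mouse genome. They were taken from a table of raw counts per repeat name as the names that begin with MTA to MTE, MT2, MERVL, ORR1, MLT1, MST or THE1. Of the 4261 names in that table, 116 matched, and 99 of these had a summed count of at least 30 over the 6 libraries. These 99 names are described here: 2 MERVL, 6 MT2, 19 MT, 28 ORR1 and 44 MLT1 names. MST and THE1 matched 0 names and are not analysed here. The other 17 matching names held 0 to 29 counts in all. All of them but ORR1G-int are MLT1 names, and all but MLT1C2 are internal regions.

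The libraries came from primary lung fibroblasts of the mouse, 3 of quiescent cells and 3 of cells made senescent with Nutlin 3a, which blocks Mdm2 from binding p53. For senescence the labels give 16 h of RO3306, a Cdk1 inhibitor, 48 h of Nutlin 3a, and 100 nM of the Plk1 inhibitor BI-2536 to remove dividing cells, over 12 days altogether. The quiescent samples carry this text as well, and the sources used here do not say how quiescence was reached. Both groups grew with 10% serum at 5% oxygen. Mouse strain, age and sex are likewise not stated. Nor is it stated that replicates came from separate cultures or mice, so each p-value reflects the spread among these samples alone, and that spread may be technical.

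LTR retrotransposons consist of an internal region between a pair of LTRs, which hold the promoter and the end of the transcript. Recombination between both LTRs leaves a solitary LTR, the form of most copies in the genome. MERVL is an autonomous element whose LTR is named MT2_Mm. It is known for its burst of transcription in the embryo at the 2-cell stage, where the transcription factor Dux activates it. MaLR elements (MT, ORR1, MLT1) lack most coding capacity and are thought to have spread with the enzymes of ERVL relatives. MT LTRs are known as promoters of transcripts in the mouse oocyte. MT, ORR1, MT2 and MERVL names belong to rodents, while MLT1 copies predate the rodent lineage and are shared with other mammals. Within a family the letters follow age only roughly. The split used here, 55 rodent-specific names against 44 ancient MLT1 names, rests on the names and not on a deposited annotation. Histone methylation, histone demethylation by Kdm1a, and chromatin assembly factors are known to repress some of these elements, MERVL among them.

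A repeat name pools the reads of all its copies, so the elements have no single genome position here. Reads from a copy inside an intron or untranslated region of a gene cannot be told apart from reads of the element's own transcript. In these bulk libraries fewer cells that express an element and less RNA per cell cannot be told apart either. The class III names held 217545 to 254712 counts in a quiescent library and 110347 to 166970 in a senescent one. That was 3.71% to 3.98% of the repeat counts outside 2 ribosomal RNA names in quiescent libraries, and 1.87% to 2.31% in senescent libraries. The ribosomal RNA names took 97.5% to 98.0% of all repeat counts. Gene totals ran from 93736593 to 109706025 counts, of which 79.8% to 82.8% lay in Rn45s (the ribosomal RNA precursor), Lars2 and Mir6236, grouped as ribosomal rows even though Lars2 codes for a protein. Levels are given as CPM on the gene table's effective library size, which is its total times its TMM factor (a factor that centres most genes). Since that total holds the ribosomal rows, CPM values look low, and a scale of raw gene totals without TMM is set mostly by those rows. Summed fibroblast markers were 3855 to 3943 CPM in quiescent and 2151 to 2623 CPM in senescent libraries, and macrophage markers 1.52 to 1.83 and 4.62 to 5.97 CPM. Of the 8 fibroblast markers 5 were called lower and 2 higher, and all 3 macrophage markers that could be tested, of 5, were higher. Epithelial markers, none of which passed the filter, summed to at most 0.312 CPM and endothelial ones to at most 5.52 CPM. What these shifts contribute to the repeat levels was not tested. Cdkn1a, the p53 target that stops the cell cycle, rose (log2 fold change 1.14) in senescent libraries, as did Mdm2 (0.95). The proliferation markers Mki67 (-2.33) and Top2a (-1.98) fell. Mki67 averaged 52.6 CPM in quiescent and 10.4 CPM in senescent libraries, and Top2a 52.7 and 13.4 CPM. Both were thus well counted in the quiescent group, a name taken from the labels. Whether its cells had stopped dividing was not tested.

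Most class III names were lower in senescent libraries. On the gene table's scale 77 of the 97 names that passed the count filter were called lower and 7 higher, with 13 not called (edgeR quasi-likelihood test, adjusted p under 0.05 over all 1274 repeat names tested). Lower calls prevailed among repeats at large too: of all tested repeat names, class III included, 69.4% were called, 59.9% lower and 9.5% higher. The summed level of all repeat names outside ribosomal RNA went the other way, from 54861 to 56551 CPM in quiescent to 63186 to 70444 CPM in senescent libraries, so both a smaller class III count and a larger total enter the share given above. The share of class III names called lower was 79.4%. Their median log2 fold change was -0.63, beside -0.50 over all names. The 3 senescent libraries lay below all 3 quiescent ones for 79 class III names and above them for 7. Such a gap in either direction was seen for 75.7% of all tested names. The 2 untested names, MLT1A-int and MLT1I-int, averaged 0.0727 and 0.0972 CPM in quiescent and 0.0416 and 0.0617 CPM in senescent libraries.

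The choice of scale decides how many names count as lower. With TMM factors of the repeat table itself, which centre the repeats (median over all names -0.01), the median of the class III names was -0.14. On that scale 42 were called lower, 18 higher and 37 not called, beside 25.4% of all names lower and 28.7% higher. All 42 of these lower names were among the 77 of the gene scale, and all 7 that were higher on the gene scale were higher on this one. Another 32 of the 77 lost their call. MLT1J, MTE-int and ORR1B1 turned from lower to higher. Another 8 names, without a call on the gene scale, became higher: MLT1F, MLT1F2-int, MLT1H-int, MLT1N2, MT2B2, ORR1A0-int, ORR1A3-int and ORR1B1-int. On raw gene totals without TMM the median of all names was -0.80, and MLT1H was the single class III name called higher.

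**Figure D1:**
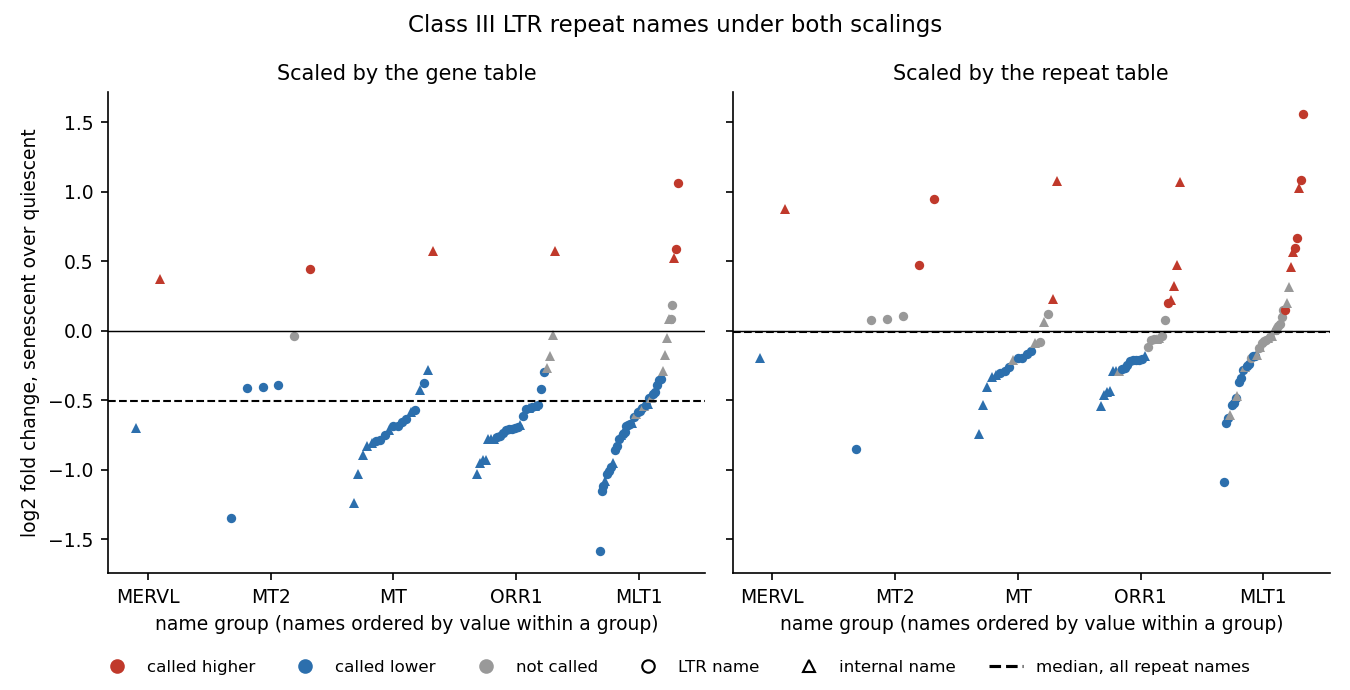
Log2 fold change, senescent over quiescent, of the 97 tested class III names by name group, with effective library sizes of the gene table (left) and TMM factors of the repeat table (right). Circles are LTR names and triangles internal names, colour gives the call, and the dashed line is the median of all repeat names, -0.50 on the left and -0.01 on the right; most names lie below zero on the left, and MTEb-int (0.57), ORR1A1-int (0.58) and MLT1H (1.06) are the highest of their groups there.

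Summed over all names, the class III level was 2253, 2148 and 2053 CPM in the quiescent libraries and 1459, 1233 and 1623 CPM in the senescent ones. The groups did not overlap, and the mean log2 difference was -0.59 on the gene scale against -0.09 on the repeat scale. With 3 libraries against 3 an exact two-sided permutation test cannot go below p = 0.1, so no summed level or ratio below could pass 0.05. Senescent replicate 2 was the lowest senescent library for 85 of the 97 names, and for 78.3% of all tested names. Without it the median class III log2 fold change was -0.53, with 74 names called lower and 8 higher.

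Both names of the MERVL element itself rose on the gene scale and on the repeat scale. MERVL-int, the internal region with the gag and pol coding parts, stood at 9.96, 10.1 and 10.0 CPM in quiescent and 13.1, 12.4 and 13.4 CPM in senescent libraries. Every senescent library lay above every quiescent one (log2 fold change 0.37, SE 0.09, edgeR adjusted p = 0.0038). Its LTR MT2_Mm had 7.55, 8.24 and 7.85 CPM in quiescent and 10.5, 10.5 and 11.3 CPM in senescent libraries. Again the groups did not overlap (0.45, SE 0.10, edgeR adjusted p = 0.0016). On the repeat scale both changes were larger, 0.87 and 0.95. On raw gene totals they were 0.07 (adjusted p = 0.69) and 0.15 (adjusted p = 0.42), so the rise of both names in CPM depends on the TMM factor. The ratio of internal to LTR counts overlapped between groups, with 1.22 to 1.32 internal counts per LTR count in quiescent and 1.18 to 1.25 in senescent libraries.

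The related names did not share this rise on the gene scale. MERVL_2A-int, the internal region of a related subfamily, had 24.7, 24.2 and 22.8 CPM in quiescent and 15.4, 13.3 and 15.6 CPM in senescent libraries. It fell by 0.70 (SE 0.10, edgeR adjusted p = 1.4e-04), and by 0.20 on the repeat scale. The LTR MT2C_Mm had 12.5, 12.1 and 11.9 CPM in quiescent and 5.10, 4.01 and 5.24 CPM in senescent libraries. This was the deepest fall among the MT2 names (-1.34, SE 0.12, edgeR adjusted p = 4.9e-06), and it held on the repeat scale (-0.85). MT2A (-0.39), MT2B (-0.40) and MT2B1 (-0.41) were called lower on the gene scale, but on the repeat scale their values were 0.11, 0.09 and 0.08 with no call. MT2B2 had 24.1, 24.2 and 24.4 CPM in quiescent and 23.4, 24.6 and 22.8 CPM in senescent libraries, groups that overlap (-0.04, adjusted p = 0.69; 0.47 and called higher on the repeat scale).

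Ratios of counts within a library need no library size, so the divergence they show does not depend on the scale. They use the same counts as the values above and are no separate support. MT2_Mm had 0.604, 0.679 and 0.662 counts per MT2C_Mm count in quiescent libraries and 2.06, 2.61 and 2.15 in senescent ones. MERVL-int had 0.403, 0.417 and 0.440 counts per MERVL_2A-int count in quiescent and 0.851, 0.933 and 0.861 in senescent libraries. Both ratios lay above the quiescent range in every senescent library, with log2 differences of 1.80 and 1.07. Each sets a name that rose on the gene scale against one that fell, so the gap between groups follows from that choice. MERVL-int and MT2_Mm together went from 0.00923 to 0.0103 of the count of all other rodent-specific names in quiescent libraries to 0.0182 to 0.0225 in senescent ones.

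**Figure D2:**
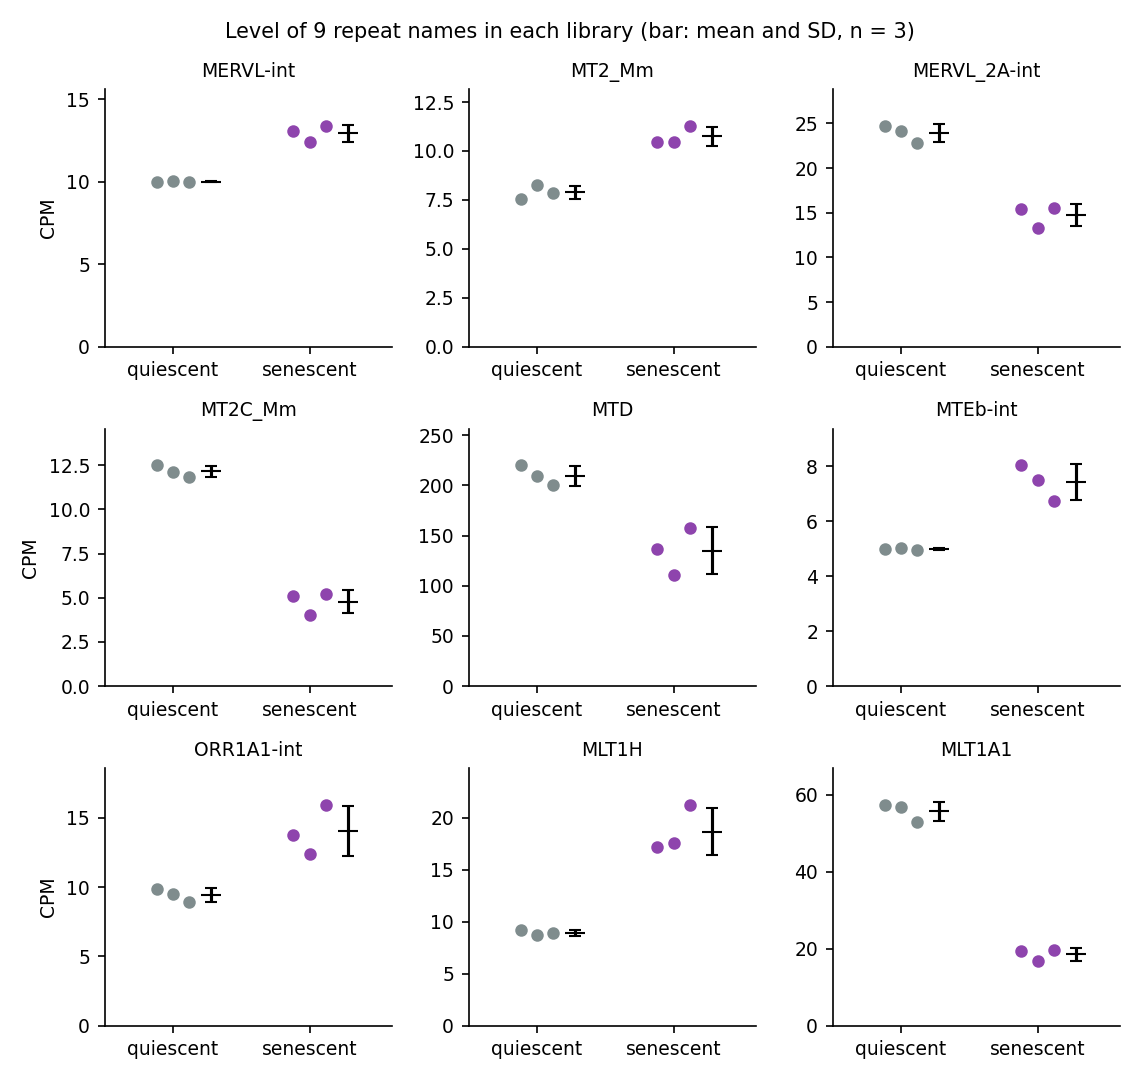
CPM on the gene table's scale of 9 class III names in each of the 3 quiescent and 3 senescent libraries; each point is a library, and the bar is the group mean with its SD. MERVL-int, MT2_Mm, MTEb-int, ORR1A1-int and MLT1H are higher in all 3 senescent libraries, while MERVL_2A-int, MT2C_Mm, MTD and MLT1A1 are lower in all 3.

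Nearly all MT names fell on the gene scale, where 18 of 19 were called lower and 1 higher, with a median of -0.69. On the repeat scale 12 were lower and 2 higher. All 9 MT LTR names fell on the gene scale. MTD, the name with the most counts of all class III names, had 220, 209 and 200 CPM in quiescent and 137, 111 and 158 CPM in senescent libraries. Its groups did not overlap (-0.63, SE 0.11, edgeR adjusted p = 5.5e-04), and on the repeat scale it was -0.14 (adjusted p = 0.044). MTA_Mm, the youngest MT LTR and the one best known from oocytes, had 65.2, 62.7 and 60.0 CPM in quiescent and 38.1, 31.7 and 41.8 CPM in senescent libraries. It fell by 0.75 (SE 0.10, edgeR adjusted p = 1.2e-04) and by 0.26 on the repeat scale. MTB (-0.68), MTC (-0.65) and MTEa (-0.69) also fell on both scales. Summed by letter, the MT differences lay close together, from -0.74 for MTA through -0.68 (MTB), -0.66 (MTC) and -0.66 (MTD) to -0.63 for MTE.

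The internal names of the MT elements ran from -1.24 to 0.57 on the gene scale, and their LTR names from -0.80 to -0.37. MTA_Mm-int (-0.72), MTB-int (-0.83), MTC-int (-0.58) and MTD-int (-0.90) were called lower on the gene scale. On the repeat scale MTB-int and MTD-int were still called, while MTA_Mm-int (-0.21, adjusted p = 0.053) and MTC-int (-0.09) were not. MTE2b-int had 5.33, 5.10 and 5.22 CPM in quiescent and 2.09, 2.15 and 2.40 CPM in senescent libraries, the deepest fall of an MT name (-1.24). MTEb-int went the other way, with 4.98, 5.03 and 4.94 CPM in quiescent and 8.03, 7.50 and 6.72 CPM in senescent libraries. All senescent libraries were above the quiescent ones (0.57, SE 0.11, edgeR adjusted p = 6.2e-04; 1.08 on the repeat scale; 0.27 without a call on raw gene totals). MTE-int, called lower on the gene scale (-0.28, adjusted p = 0.027), was called higher on the repeat scale (0.23), and it lost its call without quiescent replicate 1 (-0.25, adjusted p = 0.11) or 2 (-0.25, adjusted p = 0.12).

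Of the 28 ORR1 names, 24 were called lower and 1 higher on the gene scale (median -0.69), and 15 lower and 5 higher on the repeat scale. All 14 ORR1 LTR names fell on the gene scale. ORR1A0 (-0.71) and ORR1A2 (-0.71) were lower on both scales, while ORR1E, the ORR1 name with the most counts, was lower on the gene scale (-0.56) and had no call on the repeat scale (-0.07). ORR1C2-int showed the deepest fall of an ORR1 name, from 3.97, 3.87 and 3.27 CPM to 1.98, 1.42 and 2.01 CPM (-1.03). ORR1A1-int was the one ORR1 name that rose. It had 9.85, 9.53 and 8.92 CPM in quiescent and 13.8, 12.4 and 15.9 CPM in senescent libraries (0.58, SE 0.11, edgeR adjusted p = 8.4e-04; 1.07 on the repeat scale; 0.28 without a call on raw gene totals). Its own LTR, ORR1A1, was called lower on the gene scale (-0.42) and had no call on the repeat scale (0.08). By letter the summed ORR1 differences ran from -0.42 for ORR1B to -0.75 for ORR1D, with no order along the alphabet: ORR1A was at -0.51 and ORR1G at -0.57. On the repeat scale ORR1B was at 0.08.

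The ancient MLT1 names had the widest range of the 5 name groups, from -1.59 to 1.06 on the gene scale. Of 42 tested, 30 were called lower, 3 higher and 9 not called on the gene scale (median -0.58), and 13 lower, 8 higher and 21 not called on the repeat scale. MLT1A1 had 57.4, 56.8 and 53.0 CPM in quiescent and 19.3, 16.7 and 19.7 CPM in senescent libraries. It had the lowest log2 fold change of all class III names on both scales (-1.59, SE 0.09, edgeR adjusted p = 1.8e-07; -1.09 on the repeat scale). MLT1I (-1.15) and MLT1O (-1.12) also fell on both scales. MLT1A0 (-0.67) and MLT1C (-0.74) fell by about the class III median.

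MLT1H had the highest log2 fold change of the class III names on both scales. Its LTR stood at 9.23, 8.69 and 8.93 CPM in quiescent and 17.2, 17.6 and 21.3 CPM in senescent libraries (1.06, SE 0.11, edgeR adjusted p = 1.6e-05; 1.56 on the repeat scale). It was also called on raw gene totals (0.77). The internal name MLT1H-int did not follow: its 21.2, 20.2 and 19.9 CPM in quiescent and 20.5, 20.3 and 18.3 CPM in senescent libraries overlap (-0.05, adjusted p = 0.62), although it was called higher on the repeat scale (0.46). Within MLT1H the numbered LTR names MLT1H1 (-1.01) and MLT1H2 (-0.98) fell. MLT1M had 3.81, 3.63 and 3.87 CPM in quiescent and 5.57, 5.30 and 6.12 CPM in senescent libraries and rose by 0.59 (0.29 without a call on raw gene totals). MLT1-int, with 1.98, 2.07 and 1.50 CPM against 2.88, 2.81 and 2.31 CPM, was called higher (0.52, adjusted p = 0.010). Without quiescent replicate 3 that call was lost (0.39, adjusted p = 0.056).

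Per library, MLT1H had 0.161, 0.153 and 0.169 counts per MLT1A1 count in quiescent and 0.889, 1.05 and 1.08 in senescent libraries. The log2 difference of 2.65 spans the whole range within the ancient group, since these names were picked as its extremes. The gap between groups follows from that choice and is no separate support. Summed by letter, the MLT1 differences on the gene scale ran from -1.15 for MLT1A and MLT1I and -1.14 for MLT1O to 0.59 for MLT1M, with MLT1H at 0.27 (-0.03 on raw gene totals). MLT1N overlapped between groups, and on the repeat scale MLT1D, MLT1F, MLT1J and MLT1L turned positive (0.09, 0.14, 0.09 and 0.15). Without MLT1A1, which has the most counts in its group, MLT1A was at -0.74.

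**Figure D3:**
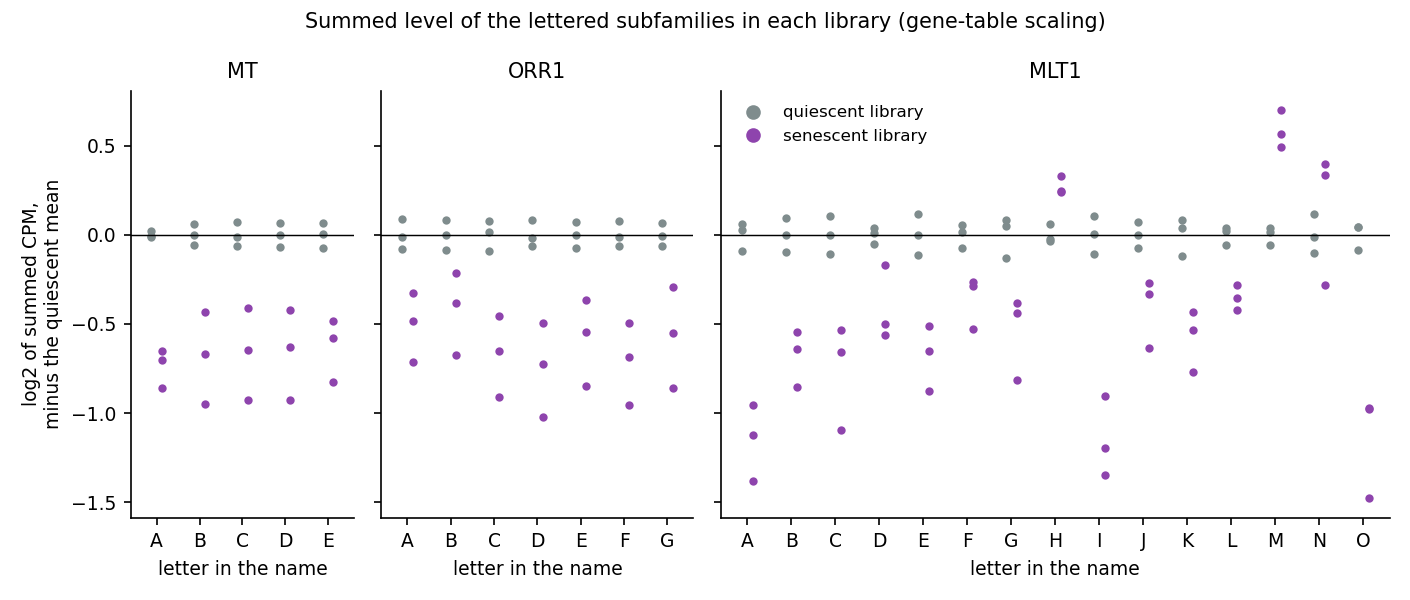
Log2 of the summed CPM of each lettered MT, ORR1 and MLT1 subfamily in each library, minus the mean of the quiescent libraries, on the gene table's scale. MT letters lie close together from -0.74 to -0.63, whereas MLT1 letters run from -1.15 to 0.59.

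On the gene scale 47 of 55 rodent-specific names were called lower (85.5%) and 4 higher, with a median of -0.68. Of the 42 ancient names tested, 71.4% were lower and 3 higher, with a median of -0.58. Over all repeat names the shares were 59.9% lower and 9.5% higher. On the repeat scale 29 rodent-specific names were lower and 10 higher, and 13 ancient names lower and 8 higher. Whether the age groups differ in these counts was not tested. The ratio of rodent-specific to ancient counts was 5.64, 5.56 and 5.70 in quiescent and 5.51, 5.27 and 5.64 in senescent libraries. The groups overlap, and the log2 difference of -0.04 had p = 0.2 in an exact two-sided permutation test. A p of this size does not show that the ratio is equal. Without the most abundant name on each side, MTD and MLT1A1, the ratio was 6.01, 5.95 and 6.10 in quiescent and 5.36, 5.15 and 5.43 in senescent libraries. Every senescent library then lay below every quiescent one, with a log2 difference of -0.18 (exact permutation p = 0.1, the smallest this design can give). Within the rodent-specific names the ORR1 to MT ratio moved from 1.01, 0.995 and 0.987 to 1.05, 1.04 and 1.07, a log2 difference of 0.07.

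The balance of internal and LTR counts differed between elements. For 32 internal names whose LTR name is the same apart from the suffix (MT2_Mm for MERVL-int), the ratio of internal to LTR counts was computed in each library. In 7 pairs all senescent libraries lay above the quiescent range, in 8 below it, and in 17 the groups overlapped. Over 43 such pairs of all LTR families, these 32 included, the shares were 27.9% above and 23.3% below. Of the 11 pairs of other families 5 lay above, 2 below and 4 overlapped. Whether class III pairs differ from those was not tested. The pairs are given as values of each element. ORR1A1 had 0.602, 0.673 and 0.656 internal counts per LTR count in quiescent and 1.26, 1.35 and 1.23 in senescent libraries. ORR1A0 went from 1.04, 1.14 and 1.16 to 1.86, 1.89 and 1.61, and ORR1A3 and ORR1A2 moved the same way by 0.36 and 0.17 on the log2 scale. ORR1A4 overlapped. So 4 of the 5 ORR1A pairs, the youngest ORR1 elements, had relatively more internal counts in senescent libraries.

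MTEb went from 0.114, 0.120 and 0.124 to 0.235, 0.263 and 0.196 internal counts per LTR count, and MLT1F2 and MTE2a also moved up (0.83 and 0.35 on the log2 scale). The largest shift the other way was MLT1H, from 2.30, 2.33 and 2.23 to 1.20, 1.15 and 0.862, where the LTR was called higher and the internal name was not. The other 7 downward pairs were MTB_Mm (-0.45), MTE2b (-0.43), ORR1C2 (-0.43), ORR1E (-0.40), MLT1D (-0.36), MTD (-0.26) and MTEa (-0.12). These ratios do not depend on the library scale.

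**Figure D4:**
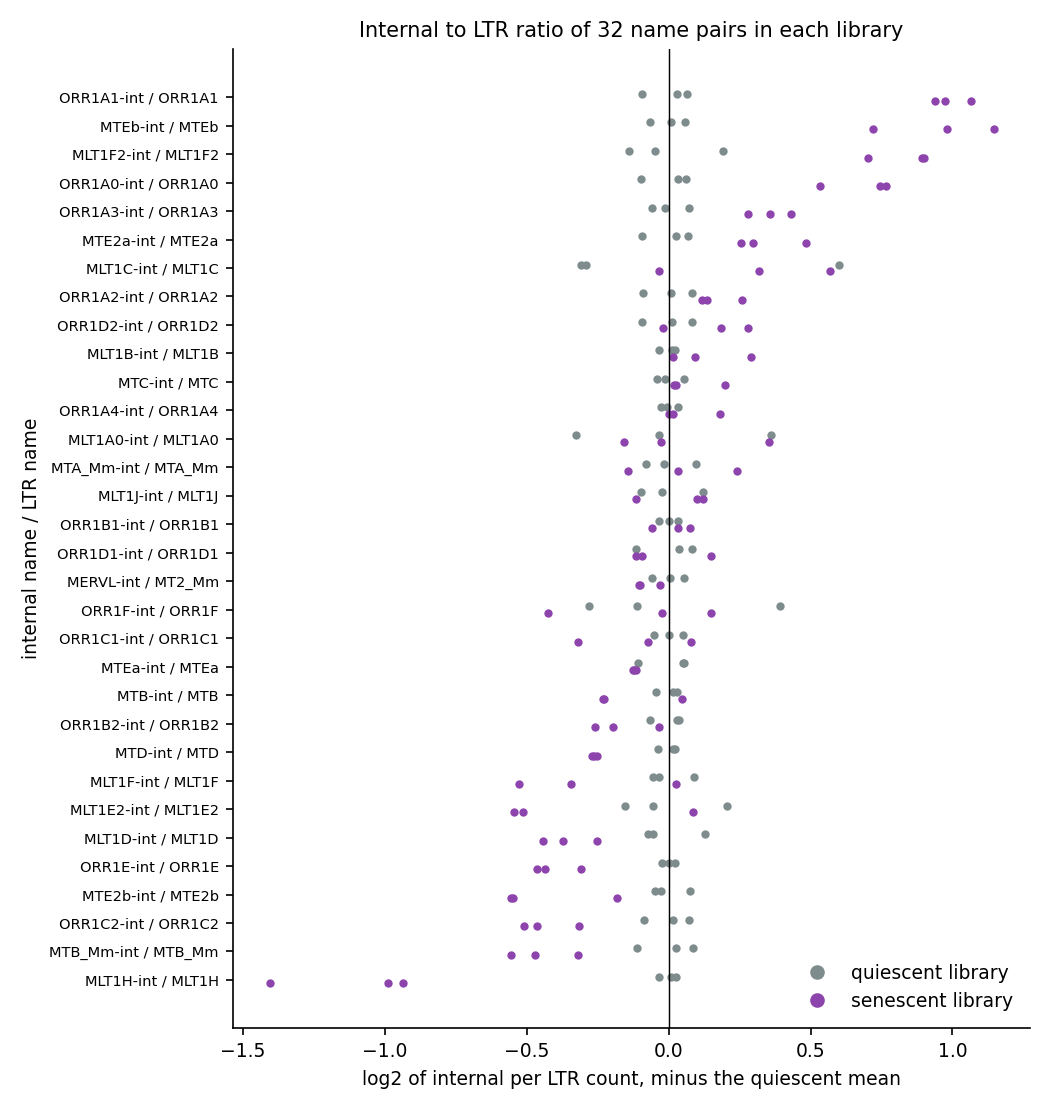
Log2 of the internal per LTR count of 32 class III name pairs in each library, minus the quiescent mean of the pair, ordered by the difference between groups. ORR1A1 and MTEb lie highest, at 0.99 and 0.95, and MLT1H lowest at -1.11, while 17 pairs overlap between groups.

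Against 3 other sets of repeat names, picked by how the names begin, the class III counts were a smaller part in senescent libraries. The SINE set held 28 names of the B, ID and MIR kinds, and the L1 set 124 names that begin with L1 or Lx. The class II set was only the 33 names that begin with IAP, MMERVK, ETn or MMETn, and no other LTR names were counted in it. Per library the summed count was 0.228, 0.228 and 0.226 of that of SINEs in quiescent and 0.202, 0.200 and 0.200 in senescent libraries. Against L1, the autonomous LINE, it was 0.118, 0.118 and 0.110 in quiescent and 0.0729, 0.0521 and 0.0711 in senescent libraries. Against this class II set it was 18.1, 17.6 and 16.7, then 12.0, 11.1 and 11.9. None of these ranges overlapped, with log2 differences of -0.18, -0.83 and -0.58. By single names the picture differed for L1: the median log2 fold change was -0.66 over 123 L1 names, -0.40 over 28 SINE names and -0.45 over 31 class II names, beside -0.63 for class III. Called lower were 105 L1, 24 SINE and 14 class II names, and called higher 3, 0 and 4, beside 77 lower and 7 higher of 97 in class III. By calls of single names, the fall was thus not particular to class III.

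Genes of a fixed list of chromatin and silencing factors moved in both directions, and their part in silencing class III elements here was not tested. Of 37 tested genes of a 38-gene list, 9 were called higher and 15 lower, with a median log2 fold change of -0.07, beside 36.7% of all 14065 tested genes higher and 37.8% lower. Gene positions are from GRCm38, the assembly mm10 names, in the GENCODE M21 annotation. The H3K9 methyltransferase gene Suv39h1 (chrX:8061171-8074760, minus strand) had 3.42, 3.42 and 3.86 CPM in quiescent and 1.72, 1.91 and 1.44 CPM in senescent libraries. It fell by 1.08 (SE 0.11, edgeR adjusted p = 2.8e-06), without overlap. Ehmt2 (chr17:34898469-34914052, plus strand), the H3K9 methyltransferase whose loss is known to release MERVL, had 42.6, 40.5 and 43.0 CPM against 24.3, 24.4 and 20.4 CPM and fell by 0.87. Kmt5c, an H4K20 methyltransferase gene, fell by 1.01, and Uhrf1, which guides Dnmt1 to newly copied DNA, fell by 0.61.

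Kdm1a (chr4:136550540-136602723, minus strand), the demethylase that represses MERVL, rose. It had 13.6, 13.5 and 13.5 CPM in quiescent and 18.1, 19.4 and 21.0 CPM in senescent libraries (0.52, SE 0.06, edgeR adjusted p = 7.1e-06). Its partner Rcor1 (0.70), the SUMO ligase gene Pias4 (0.45) and the repressor gene E2f6 (0.40) also rose. On raw gene totals Kdm1a (0.23) and Rcor1 (0.40) were still called, while Pias4 (0.15, adjusted p = 0.25) and E2f6 (0.09, adjusted p = 0.38) were not. Trim28, the corepressor that zinc finger proteins bring to LTR elements, and its partner Setdb1 were not called (-0.06 and -0.07). On raw gene totals 27 genes of the list were lower and 2 higher, and Trim28 (-0.36) and Setdb1 (-0.37) were called lower. Zfp42, a repressor of MERVL in stem cells, had 0 counts in every library.

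Genes of the 2-cell program, some of which are transcribed from a MERVL LTR, were at or near 0. Of 33 listed, 28 had a row in the gene table, 18 of these had 0 counts in all 6 libraries, and 0 passed the count filter, so none was tested. Dux had 0 counts in every library. Zscan4c and Zscan4f had 1 count each, both in senescent replicate 3. The summed level of the list was 0.00941 to 0.0566 CPM in quiescent and 0.0894 to 0.136 CPM in senescent libraries. The MERVL-int and MT2_Mm levels above were therefore measured in libraries with almost no counts of these genes, and which copies gave those reads was not tested.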

How the data were processed

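Tables of raw counts were deposited by the authors, by gene symbol and by repeat name, for 6 libraries of ribosomal RNA-depleted total RNA, made with a directional kit and read as pairs of 100 bp, per the labels' protocols. The submitters' processing notes name mm10, edgeR 3.32.1 and limma 3.46.0. The sources used here do not give the aligner, the counter, the use of strand or the treatment of reads that map to several places, so closely related names may share reads. Groups came from the labels.

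Repeat counts were tested in R 4.3.3 with edgeR 4.0.16, after filterByExpr (minimum count 10), by a robust quasi-likelihood fit, and Benjamini-Hochberg adjustment over all tested names with a threshold of 0.05. Library sizes were the gene table's TMM-adjusted totals, and the repeat table's own TMM factors were the stated second scale. The standard error was obtained from the log2 fold change and the root of its F statistic. Genes were tested the same way, over 14065 of 25239 rows. Summed levels and ratios within a library used exact permutation tests (scipy 1.17.1). Standard errors and p-values of the fits take in counting error and the spread among the libraries of a group. The reads carry no molecular identifiers.

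Named members were 14 fixed names, the most abundant LTR and internal name of each group, and the 6 names that changed most in each direction among tested names with a mean of at least 30 counts. Named genes were up to 4 higher and 4 lower silencing genes by fold change, with Trim28, Setdb1, Kdm1a, Zfp42, Dux and Zscan4 genes. Names turned by the scaling, the other MT2 names, MLT1H1 and MLT1H2, and the paired LTRs were added after their values were seen. Of the ratios, only that of rodent-specific to ancient counts was planned. The members and lists were chosen with earlier results of these data known. Alternatives were other scalings and filters, a threshold of 0.01, DESeq2 1.42.0, limma-voom (limma 3.58.1), a replicate block and each library left out. Same-numbered libraries did not deviate together (correlations 0.04, 0.03 and -0.06), so the numbers were not taken to pair them. No within-group pair of libraries agreed within sampling noise. On simulated counts of 1274 repeat names for this comparison, the test recovered 38% of names changed 1.25-fold and 74% of those changed 1.5-fold. It recovered 98% of those changed 2-fold and 100% of those changed 4-fold, and it made 5 false calls. The simulation gave all names a common dispersion and changed as many names up as down. In the data most called names were lower, so these rates need not hold there.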

Additional observations from a re-analysis of the deposited data

How the results depend on the processing

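Scaling moved the counts of calls, and both scaling and the most abundant name moved summed levels. Under the repeat table's TMM, gene totals without TMM and DESeq2's own size factors, 18, 1 and 17 class III names were called higher. Under the same settings the number of all repeat names called higher was 368, 60 and 344. Under the repeat table's TMM and DESeq2's own size factors 42 and 41 class III names were called lower, and 326 and 279 of all names. Under these same 2 settings the sign turned for MT2B (0.089 and 0.094), MT2A (0.11 and 0.11), MTE-int (0.23 and 0.24) and MLT1H-int (0.46 and 0.47). Under the repeat table's TMM and gene totals without TMM the summed log2 difference was -0.086 and -0.89 for all class III names, 0.21 and -0.59 for MERVL, 0.19 and -0.62 for MT2, -0.16 and -0.96 for MT, -0.085 and -0.89 for ORR1, and -0.051 and -0.85 for MLT1. Without its most abundant name the MERVL difference turned from -0.29 to 0.37, that of MLT1 -0.41, and the log2 difference of the rodent-specific to ancient ratio was -0.18 instead of -0.04. Of the lettered sums, leaving out internal names moved ORR1A to -0.67 and MLT1H to 0.66. On gene totals without TMM 2 silencing genes were higher and 27 lower. With the replicate number as a block 7 class III names were higher and 78 lower, and the block changed no call of a named member or gene. With each library left out in turn 6 to 8 were higher and 66 to 79 lower. In every setting run, 1 name (MLT1H) was called higher and 41 lower. The 2-cell genes gave no value under any setting that filtered low counts. Names of few counts, most of them internal MLT1 names, were limited by depth.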
